A study of Mus musculus with 4 samples.

Results

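The guanylate-binding proteins, a family of interferon-inducible GTPases, were followed by their mRNA in 3D-cultured mouse mammary epithelial cells. The 9 members Gbp2, Gbp3, Gbp4, Gbp5, Gbp6, Gbp7, Gbp8, Gbp9 and Gbp10 were found by gene symbol among the 54446 genes of the expression table, and 8 of them had a value above 0 in all 4 libraries. Wild type C57BL/6 mammary glands were the source, and the glands of the study came from female mice of 6 to 9 weeks, virgin or at specified stages, according to its methods. Cells were sorted as basal (Lin-CD29hiCD24+) or luminal (Lin-CD29loCD24+) and grown in Matrigel with growth factors reduced, in medium that held EGF and was renewed daily. The libraries were basal cells with DMSO, basal cells with 100 μM baicalin, luminal cells with DMSO and luminal cells with 100 μM baicalin, with 1 library for each, so DMSO served as the control for baicalin, a flavonoid of Scutellaria roots. Because no condition has a second library, there is no spread between replicates and no test between conditions, and the 95% intervals given here cover counting error only. The family was chosen by its levels in the libraries labelled basal, where earlier results of these data had shown Gbp3 lower with baicalin, so the values of that comparison are a description and support nothing.

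Guanylate-binding proteins are large GTPases that cells make after exposure to interferons, above all interferon gamma. They assemble on the membranes of vacuoles that hold bacteria or parasites and on bacteria in the cytosol, where they help to break the membrane and to start inflammasome signaling. Some members, such as Gbp2 and Gbp5, carry a lipid tail, added by prenylation, that anchors them to membranes. In the mouse, the genes lie in one cluster on chromosome 3 and another on chromosome 5, and IRF1 is among the factors known to switch them on.

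The chromosome 3 cluster held Gbp5 (142493978 to 142522344), Gbp7 (142530342 to 142550149), Gbp3 (142560026 to 142573209) and Gbp2 (142620602 to 142638008), all on the plus strand of GRCm38 in the GENCODE annotation. The chromosome 5 cluster held Gbp8 (105014150 to 105139540), Gbp9 (105077630 to 105139539), Gbp4 (105115767 to 105139586), Gbp10 (105215699 to 105239533) and Gbp6 (105270702 to 105293698), all on the minus strand. RefSeq promoter windows of build GRCm38.p6, each of 250 bases before and 50 bases after a gene's start, matched 4 of the 9 members, which are the 4 of chromosome 3. The 250 bases before the start are shown for these 4 genes because they hold the core of the interferon-stimulated response element (ISRE), a site that IRF proteins bind. The letters searched were TTTCNNTTTC and, for the other strand, GAAANNGAAA, and capitals mark the matches.
Gbp2, chr3:142620413-142620662, plus strand: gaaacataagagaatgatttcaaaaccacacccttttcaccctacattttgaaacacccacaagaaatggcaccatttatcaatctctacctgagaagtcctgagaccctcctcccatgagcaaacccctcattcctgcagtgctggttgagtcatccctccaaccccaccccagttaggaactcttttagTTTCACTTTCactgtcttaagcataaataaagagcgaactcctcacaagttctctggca
Gbp3, chr3:142559794-142560043, plus strand: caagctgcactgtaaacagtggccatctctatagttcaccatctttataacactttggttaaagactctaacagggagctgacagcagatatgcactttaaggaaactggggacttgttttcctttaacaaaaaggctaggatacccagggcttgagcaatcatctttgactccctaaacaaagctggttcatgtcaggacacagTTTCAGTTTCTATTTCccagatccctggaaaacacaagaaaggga
Gbp7, chr3:142530086-142530335, plus strand: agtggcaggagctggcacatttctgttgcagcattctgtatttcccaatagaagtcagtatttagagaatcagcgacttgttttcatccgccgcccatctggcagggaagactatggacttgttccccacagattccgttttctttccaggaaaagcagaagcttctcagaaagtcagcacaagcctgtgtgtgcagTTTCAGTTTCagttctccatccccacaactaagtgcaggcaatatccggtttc
Gbp5, chr3:142496684-142496933, plus strand: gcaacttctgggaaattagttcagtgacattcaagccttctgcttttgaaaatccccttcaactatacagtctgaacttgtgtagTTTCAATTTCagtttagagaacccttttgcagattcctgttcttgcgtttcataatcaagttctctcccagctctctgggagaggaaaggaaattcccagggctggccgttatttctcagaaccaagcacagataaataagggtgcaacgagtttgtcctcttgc

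All 4 genes with a window held the ISRE core, whereas 1131 of 32851 windows of all genes did, or 3.44%. The match began 59 bases before the RefSeq start in Gbp2, 45 bases before it in Gbp3, 53 bases before it in Gbp7 and 165 bases before it in Gbp5. The RefSeq starts of these genes differ from the GENCODE starts given above. By the GENCODE coordinates, the match of Gbp2 and the whole window of Gbp5 lie inside the gene and not before it. In Gbp3 a second match overlapped the first and began 39 bases before the start, and a second Gbp3 window, at another start, held none. The gamma-activated site GAS, searched as TTCNNNGAA, which reads the same on both strands, occurred 2 times in the window of Gbp5 and 2 times in that of Gbp7, and in 8.30% of all windows. No GAS letters were found in the windows of Gbp2 and Gbp3. The kappaB motif of NF-kB occurred in the windows of Gbp5 and Gbp2 and in 8.46% of all windows, on either strand. These matches describe letters only, and the gene Gbp2b, a further family gene between Gbp3 and Gbp2 with an ISRE core 137 bases before its start, was listed at 0 in all 4 libraries.

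Expression was deposited as FPKM, the fragments on a gene corrected for the length of its exons and for the depth of the library. The steps of low values gave depths of 19356089 to 20648775 fragments per library, and a member's FPKM came to within 0.0073 of a whole number of fragments. The basal markers and the luminal keratins went against the labels. With DMSO, each of 10 basal and myoepithelial markers stood higher under the luminal label than under the basal one, with sums of 5404 and 1761 FPKM. The 10 keratins and other epithelial genes of luminal cells went the opposite way, and all of them had their higher DMSO level under the basal label (sums of 4560 and 1466 FPKM). With baicalin the basal markers summed to 479 FPKM in the library labelled basal and 7199 in that labelled luminal, and the luminal keratin and epithelial markers to 3161 and 1271. The markers of hormone-sensing luminal cells were split, with 4 of 8 higher under each label with DMSO. Pgr, Foxa1, Cited1 and Esr1 were higher under the luminal label, at 4.81, 9.30, 7.36 and 1.44 FPKM against 1.08, 1.80, 0.0574 and 0.992. Areg, Ly6a, Prom1 and Prlr were higher under the basal label, at 63.2, 50.6, 12.7 and 6.50 FPKM against 21.4, 28.0, 1.79 and 2.40. Of 8 alveolar luminal markers, 5 were higher under the basal label and 2 under the luminal one. The libraries are therefore named by their labels throughout, and no difference between labels is read as one between basal and luminal cells.

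Gbp2 was the most abundant member in every library. It stood at 52.3 FPKM (2613 fragments) in the library labelled basal with DMSO, 12.2 FPKM (625) in that labelled basal with baicalin, 7.86 FPKM (383) in that labelled luminal with DMSO and 10.5 FPKM (545) in that labelled luminal with baicalin. The first library was high and the other 3 were low. Gbp3 stood at 20.7 FPKM (1342 fragments), 1.13 FPKM (75), 1.76 FPKM (111) and 1.14 FPKM (77) in the same order. Gbp3 was thus also high in the first library and low in the other 3. Gbp7, which is linked to the delivery of oxidase and autophagy proteins to bacteria, stood at 6.15 FPKM (686 fragments), 1.79 FPKM (204), 1.20 FPKM (130) and 1.26 FPKM (146). Gbp5, which promotes inflammasome assembly, was near the floor, at 0.175 FPKM (23 fragments), 0.0743 FPKM (10), 0.109 FPKM (14) and 0.0073 FPKM (1). Gbp5 was thus the only member of the chromosome 3 cluster under 1 FPKM in all 4 libraries.

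On chromosome 5, Gbp9 was the one member that reached 1 FPKM in any library. It stood at 3.00 FPKM (308 fragments) with DMSO and 0.886 FPKM (93) with baicalin in the libraries labelled basal, and at 0.210 FPKM (21) and 0.309 FPKM (33) in those labelled luminal. Gbp6 had 0.381 FPKM (45 fragments), 0.0911 FPKM (11), 0.0347 FPKM (4) and 0.0407 FPKM (5) in the same order of libraries. Gbp4 had 0.356 FPKM (53 fragments), 0.0461 FPKM (7), 0.0414 FPKM (6) and 0.0323 FPKM (5). For Gbp9, Gbp6 and Gbp4 as well, the library labelled basal with DMSO was the highest, and its counting interval did not overlap those of the other 3. Gbp8 had 1 or 2 fragments in each library, and Gbp10 had 2 in the library labelled basal with DMSO and was at 0 in the others, where 3 fragments are the limit that a count of 0 allows. Both are under the floor of detection, and no fold is given for them. Gbp6 and Gbp10 share sequence, with 64.5% and 73.5% of their 100-base windows present in other genes. Between the pair, 2266 windows were common, of 6246 in Gbp6 and 3773 in Gbp10. Both also share exon bases with the gene model Gm43302, which held 3684 and 2399 of these windows and was listed at 0. Their split is therefore uncertain, as is a smaller part of Gbp7, of whose 5612 windows 562 also belong to other genes. Most of these belong to the gene model Gm43802, which overlaps Gbp7 on the same strand and shares 637 of its exon bases. Gbp2 shared none.

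**Figure D1:**
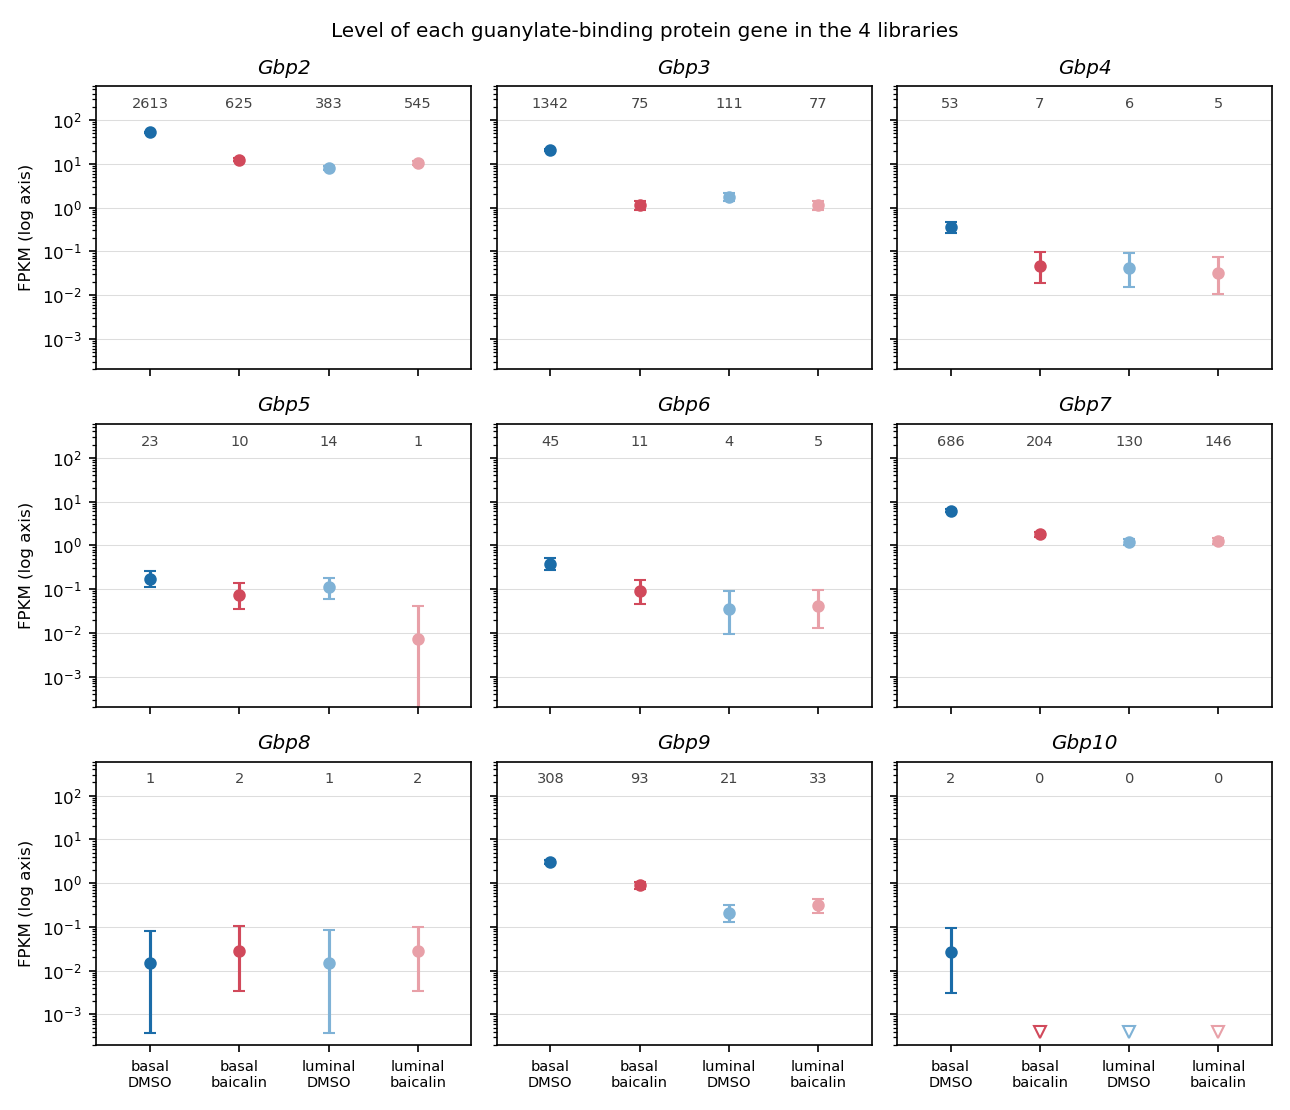
FPKM of the 9 members (log axis) in the 4 libraries, with 95% Poisson counting intervals and the number of fragments above each point. Open triangles stand for 0 fragments, and the lower bar of Gbp5 that runs off the axis belongs to a count of 1. Gbp2, Gbp3, Gbp4, Gbp6, Gbp7 and Gbp9 were highest in the library labelled basal with DMSO, with intervals clear of the other libraries.

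On the FPKM scale, which corrects for gene length, the order in the library labelled basal with DMSO was Gbp2, Gbp3, Gbp7, Gbp9, Gbp6, Gbp4, Gbp5, Gbp10 and Gbp8. Gbp6 and Gbp4 could not be told apart by their counting intervals in it, nor could Gbp10 and Gbp8. With baicalin, Gbp7 stood above Gbp3 in the library labelled basal, and Gbp3 and Gbp9 had overlapping intervals. In the library labelled luminal with DMSO, Gbp2, Gbp3, Gbp7 and Gbp9 kept the first 4 places in the same order as in the library labelled basal with DMSO, whereas Gbp7 and Gbp3 had overlapping intervals in that labelled luminal with baicalin. The 9 members summed to 83.1 FPKM in the library labelled basal with DMSO, 16.3 FPKM in that with baicalin, 11.2 FPKM in the library labelled luminal with DMSO and 13.3 FPKM in that with baicalin. Gbp2, Gbp3, Gbp7 and Gbp9 together made up at least 98.2% of the sum in each library, and the chromosome 3 members at least 93.5%. The share of Gbp3 was the one that varied most, at 24.9%, 6.95%, 15.6% and 8.58%, while that of Gbp2 was 62.9%, 75.1%, 70.0% and 78.8%. The ratio of Gbp2 to Gbp3 in FPKM was 2.53 in the library labelled basal with DMSO, 10.8 in that with baicalin, 4.48 in the library labelled luminal with DMSO and 9.19 in that with baicalin.

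The first comparison asked how baicalin changed the family in cells labelled basal. Changes are log2((baicalin FPKM + 1)/(DMSO FPKM + 1)), a scale on which members of low FPKM change less than their ratios do, and a gene was counted as lower when its change was below -1. Of the 8 members above 0 in all 4 libraries, 4 were lower, with a median of -0.73. Among all 17787 such genes, 3.33% were lower and the median was 0.01. Since this comparison led to the choice of the family, nothing is read from that contrast. Gbp3 changed by -3.35 and ranked 4 from the lowest of all genes, with a level 18.3-fold lower (ratio 0.0547, 95% interval 0.0428 to 0.0691). Gbp2 changed by -2.01, a level 4.27-fold lower (ratio 0.234, interval 0.214 to 0.256). Gbp7 and Gbp9 lay close to each other in FPKM ratio. Gbp7 changed by -1.36 (ratio 0.291, interval 0.248 to 0.341). Gbp9 changed by -1.08 (ratio 0.296, interval 0.232 to 0.374), the member just inside the threshold. The member just outside it was Gbp4, with a change of -0.37 on this scale and an FPKM ratio of 0.129 (interval 0.0496 to 0.285) that rested on 53 and 7 fragments. Gbp6 had a ratio of 0.239 (interval 0.112 to 0.470) and Gbp5 one of 0.426 (interval 0.181 to 0.930). As ratios of FPKM, then, all 7 members with more than 3 fragments in a library were lower with baicalin, and the 3 under 1 FPKM missed the threshold because of the added 1. With no added 1, 7 of 8 members were lower by more than 1, against 11.5% of all genes. With a threshold of 2 on the log2 scale 2 were lower, against 0.742% of all genes.

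**Figure D2:**
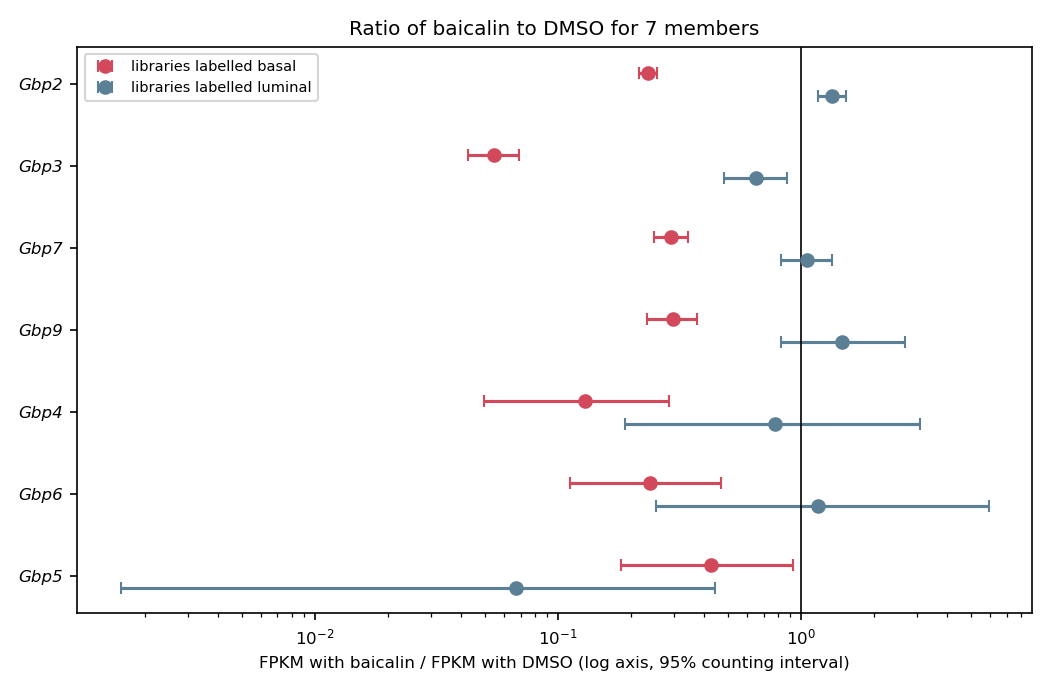
FPKM with baicalin divided by FPKM with DMSO (log axis) for the 7 members with more than 3 fragments in a library, with 95% Clopper-Pearson intervals for counting error. All 7 ratios lie under 1 in the libraries labelled basal, between 0.0547 and 0.426, and the luminal-labelled intervals of Gbp4, Gbp6, Gbp7 and Gbp9 span 1.

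In the libraries labelled luminal, 0 of 8 members changed by more than 1 with baicalin in either direction, against 3.95% of all genes, and the median was 0.01 against -0.02 for all genes. A count of 0 of 8 is near that share. Gbp2 was higher with baicalin by 0.37, a ratio of 1.33 (95% interval 1.17 to 1.52). Gbp3 changed by -0.36, a ratio of 0.650 (interval 0.480 to 0.877). Gbp2 and Gbp3 thus moved to opposite sides of 1 by more than counting error, which is not a measure of the spread between cultures. Gbp7 had a ratio of 1.05 (interval 0.825 to 1.34) and Gbp9 one of 1.47 (interval 0.827 to 2.68), so no difference was detectable for them at this depth. Gbp4 with a ratio of 0.780 (interval 0.189 to 3.07) and Gbp6 with 1.17 (interval 0.252 to 5.91) rested on 4 to 6 fragments in a library. Gbp5 had 14 fragments with DMSO but only 1 with baicalin, and its ratio was 0.0670 with an interval of 0.00158 to 0.440. The summed FPKM of the family was 1.19 times that with DMSO, whereas in the libraries labelled basal it was 5.10-fold lower.

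The difference between the log2 FPKM ratios of the libraries labelled basal and luminal was -3.57 for Gbp3 (interval -4.11 to -3.03), -2.51 for Gbp2 (interval -2.74 to -2.28), -2.32 for Gbp9 (interval -3.17 to -1.46) and -1.85 for Gbp7 (interval -2.26 to -1.45). It was -2.59 for Gbp4 (interval -4.65 to -0.54) and -2.29 for Gbp6 (interval -4.42 to -0.17), which rested on as few as 4 fragments in a library. Gbp5 went the other way at 2.67, with an interval of -0.45 to 5.79 that included 0. These intervals cover counting error, and the difference was not tested over cultures. Each difference includes the change in the libraries labelled basal, which led to the choice of the family, so it is a description and supports nothing. The plot of all genes shows where the members lie in both comparisons.

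**Figure D3:**
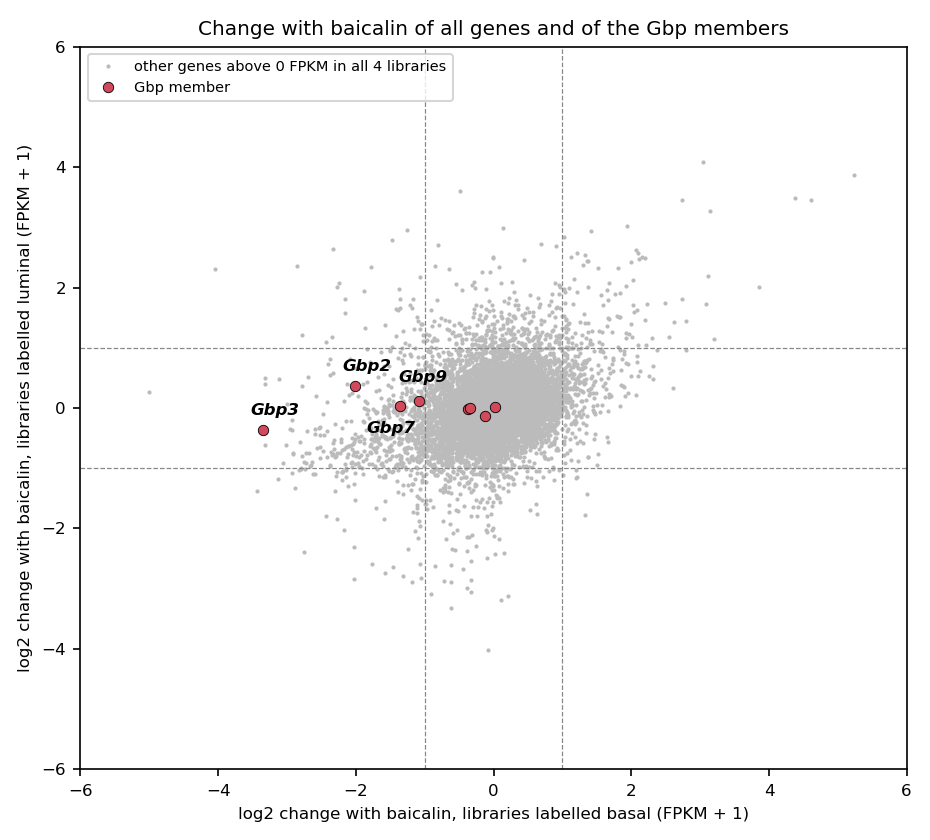
Log2 change with baicalin in the libraries labelled basal (x axis) and luminal (y axis), on FPKM + 1, for the 17787 genes above 0 FPKM in all 4 libraries, with dashed lines at a change of 1 in either direction. The 8 members (red) spread along the x axis from -3.35 to 0.02 and stay between -0.36 and 0.37 on the y axis.

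Levels under DMSO differed between the labels in the same members, a comparison that shares the library labelled basal with DMSO with the one above. Of the 8 members, 4 were lower by more than 1 in the library labelled luminal, with a median of -1.06, against 3.86% of all genes and a median of 0.01. The 4 were Gbp2, Gbp3, Gbp7 and Gbp9. As the levels in the libraries labelled basal led to the choice of the family, nothing is read from the contrast with all genes. Gbp3 had a ratio of 0.0848 (95% interval 0.0693 to 0.103) and Gbp9 one of 0.0699 (interval 0.0427 to 0.109). Gbp2 had a ratio of 0.150 (interval 0.135 to 0.167) and Gbp7 one of 0.194 (interval 0.160 to 0.235). In the libraries with baicalin, 0 of 8 members differed by more than 1 between the labels, with a median of -0.08. Among all genes 8.23% differed in either direction, with a median of -0.03, and 0 of 8 is near that share. Without the added 1, the log2 ratios of Gbp9, Gbp6 and Gbp5 were -1.52, -1.16 and -3.35. Those of Gbp6 and Gbp5 rested on 5 and 1 fragments in the library labelled luminal. The ratio of Gbp3 was then 1.01 (interval 0.724 to 1.40) and that of Gbp2 0.857 (interval 0.762 to 0.962). Gbp7 at 0.703 (interval 0.565 to 0.874) and Gbp9 at 0.348 (interval 0.227 to 0.524) were lower in the library labelled luminal by more than counting error. The differences under DMSO and those with baicalin in the libraries labelled basal both rest on the high levels in the 1 library labelled basal with DMSO. In bulk RNA, fewer cells that express a gene and less mRNA per cell cannot be told apart.

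Markers of other cell types were low beside the keratins, but those of immune cells were not low beside the members in every library. The 15 immune markers summed to 18.0 FPKM in the library labelled basal with DMSO, 55.0 in that with baicalin, 6.10 in the library labelled luminal with DMSO and 18.2 in that with baicalin, with 4, 7, 6 and 4 of the 15 at 0. In the same order, the 9 members summed to 83.1, 16.3, 11.2 and 13.3 FPKM. Ptprc, which encodes the leukocyte antigen CD45, was at 0.0138, 0, 0.0028 and 0.0053 FPKM. The T cell and NK cell genes Cd3e, Cd8a and Nkg7 were at 0 in both libraries labelled basal. Not all lymphocyte markers were at 0, as Cd4 had 0.025 and 0.0122 FPKM in these libraries. Cd79a stood at 1.07, 0.778, 0.567 and 1.40 FPKM in the same order of libraries as Ptprc. Lyz2, a macrophage gene that some epithelia also express, moved with the members, at 8.84, 2.17, 0.903 and 2.61 FPKM, as did Csf1r, at 0.340, 0.0908, 0.0317 and 0.0496 FPKM, while Adgre1 and Itgam were at or under 0.0449 FPKM. Cd68, a lysosomal gene, was highest in the library labelled basal with baicalin, at 51.5 FPKM against 7.49 with DMSO. The 7 endothelial markers summed to between 1.56 and 5.43 FPKM and the 8 fibroblast markers to between 3.32 and 11.3 FPKM. The part of any of these cells in the levels of the members was not tested.

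The interferon pathway around the family was described with lists of genes by role, chosen with earlier results of these data known. Of 21 interferon genes, 15 were at 0 in all 4 libraries, among them Ifng, Ifnl2 and Ifnl3, and the highest value of any was 0.668 FPKM, for Ifne in the library labelled basal with baicalin. Ifnb1 was at 0.0672 and 0.0657 FPKM in the libraries labelled basal and at 0 in those labelled luminal. The receptors and their kinases were present in all 4 libraries. Of 9 such genes, 0 changed by more than 1 with baicalin in the libraries labelled basal (median -0.02) or luminal (median 0.12). Among all genes 5.48% and 3.95% did, and 0 of 9 is near these shares. Ifngr1, a chain of the interferon gamma receptor, stood at 22.5, 19.5, 13.0 and 18.3 FPKM, and the kinase Jak1 at 33.8, 32.8, 34.4 and 33.8 FPKM.

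Of 18 transcription factors and brakes of the pathway, 15 were above 0 in all libraries. Of these, 4 were lower by more than 1 with baicalin in the libraries labelled basal (median -0.49), against 3.33% of all genes. They included Usp18 (change -2.71), which removes ISG15 and dampens signaling, Irf7 (-2.31), a factor that drives interferon genes, and Stat2 (-1.31). Stat2 went from 16.9 to 6.21 FPKM, and stood at 5.43 and 4.39 FPKM in the libraries labelled luminal. Irf1 changed by -0.81, from 18.2 to 9.94 FPKM, and by 0.54 in the libraries labelled luminal, from 10.4 to 15.5 FPKM. None of the 15 changed by more than 1 in the libraries labelled luminal, against 3.95% of all genes, and their median was -0.12. Irf7 had the lowest change there, from 2.49 to 0.975 FPKM, which is -0.82 with the added 1.

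The immunity-related GTPases, which act on the same vacuoles as the guanylate-binding proteins, had 8 of 11 listed genes above 0 in all libraries. Of these, 5 were lower by more than 1 with baicalin in the libraries labelled basal (median -1.36), against 3.33% of all genes. In those labelled luminal 0 were (median -0.18), against 1.59%. Iigp1 went from 7.47 to 0.205 FPKM in the libraries labelled basal, and from 0.762 to 0.186 FPKM in those labelled luminal. Igtp went from 14.7 to 3.61 FPKM, Irgm1 from 14.7 to 4.02 FPKM and Irgm2 from 6.78 to 1.91 FPKM in the libraries labelled basal. Of 36 interferon-stimulated genes outside these GTPases, 34 were above 0 in all libraries. Among the 34, 27 were lower by more than 1 in the libraries labelled basal (median -1.63), against 3.33% of all genes. In those labelled luminal 0 were (median -0.20), against 1.59%. Isg15, a ubiquitin-like modifier, went from 61.1 to 6.46 FPKM, and Ifit3b, a gene of the antiviral IFIT family, from 9.44 to 0.345 FPKM. Of 26 genes best known from interferon gamma, 6 were lower by more than 1 in the libraries labelled basal (median -0.36), against 3.33% of all genes. The 6 included the chemokine Cxcl10, from 15.7 to 1.18 FPKM. Also among them were the immunoproteasome subunits Psmb8, from 19.1 to 6.29 FPKM, and Psmb10, from 15.7 to 5.09 FPKM. In the libraries labelled luminal, 2 of the 26, Cd74 and Serping1, were higher by more than 1, against 2.37% of all genes, and the median was 0.24.

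The genes whose products act on the proteins were examined next. Of 6 prenylation enzymes, which add the lipid tail, 0 changed by more than 1 in the libraries labelled basal (median 0.05) or luminal (median 0.05). Among all genes 5.48% and 3.95% did, and 0 of 6 is near these shares. Of 13 genes for the loading of these GTPases on vacuoles and for ubiquitin-like conjugation, 1 was lower in the libraries labelled basal, the ubiquitin ligase Rnf213 (from 45.1 to 21.4 FPKM), and 1 was higher, the autophagy receptor Sqstm1 (from 204.5 to 590.1 FPKM). Among all genes 3.33% were lower and 2.15% higher, and 1 of 13 is near these shares. Sqstm1 was also higher in the libraries labelled luminal, by 1.10. Of 9 genes of the caspase-11 and AIM2 inflammasome above 0, 1 was lower in the libraries labelled basal, the nucleic acid sensor Zbp1 (from 11.2 to 1.79 FPKM). With so few genes, 1 of 9 is near the 3.33% of all genes that were lower. Zbp1 stood at 1.43 and 2.22 FPKM in the libraries labelled luminal. Casp4, which encodes caspase-11, changed by 0.42 in the libraries labelled basal and by 0.86 in those labelled luminal. The medians of this list were -0.11 and 0.40. The plot of the lists places the members beside these groups.

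**Figure D4:**
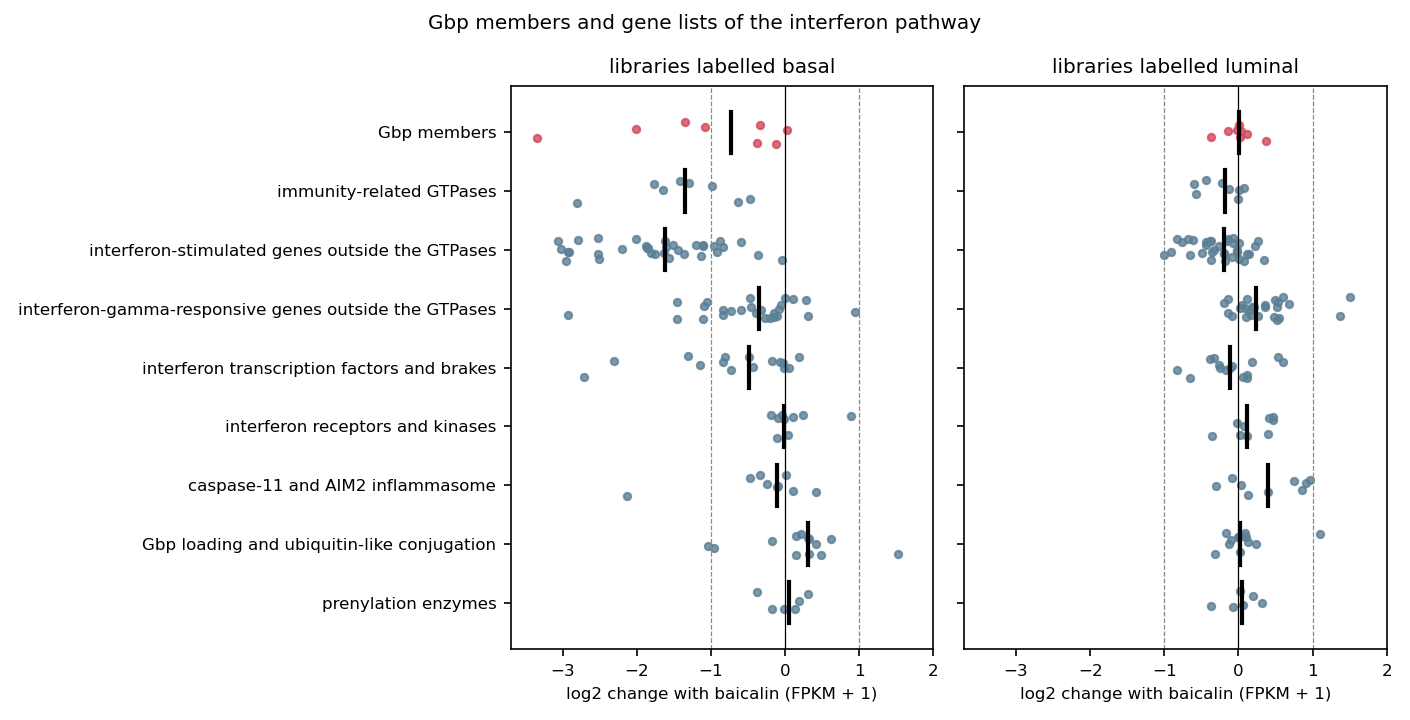
Log2 change with baicalin on FPKM + 1 of the members (red) and of 8 gene lists (blue) in the libraries labelled basal (left) and luminal (right), for genes above 0 FPKM in all 4 libraries. Black bars are medians and dashed lines mark a change of 1 in either direction. In the libraries labelled basal the medians run from -1.63 for the interferon-stimulated genes to 0.30 for the loading genes.

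The genes around each cluster were looked at in the same way. Neighbours were the 5 genes on each side with at least 1 FPKM in a library. Around the chromosome 3 cluster, 0 of 10 changed by more than 1 with baicalin in the libraries labelled basal, against 5.48% of all genes. They ranged from -0.43 to 0.77, and 0 of 10 is near that share. Some lay far off, with Rap1gds1, Tspan5, Eif4e and Metap1 3419 to 4004 kb before the cluster and Gm33651 939 kb after it. Pdlim5, a cytoskeletal gene 98.3 kb before the cluster, changed by -0.07, and Kyat3, 63.0 kb after it, changed by 0.28. Around the chromosome 5 cluster 0 of 10 changed by more than 1, which is also near the share of all genes. Their range was -0.93 to 0.54, and the lowest was Spp1, which encodes osteopontin and went from 682.5 to 356.8 FPKM. The ion channel gene Lrrc8b, 122.1 kb after that cluster, changed by 0.07. Gbp5 and Gbp8, the first gene of each cluster in genomic order, changed by -0.13 and 0.02.

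**Figure D5:**
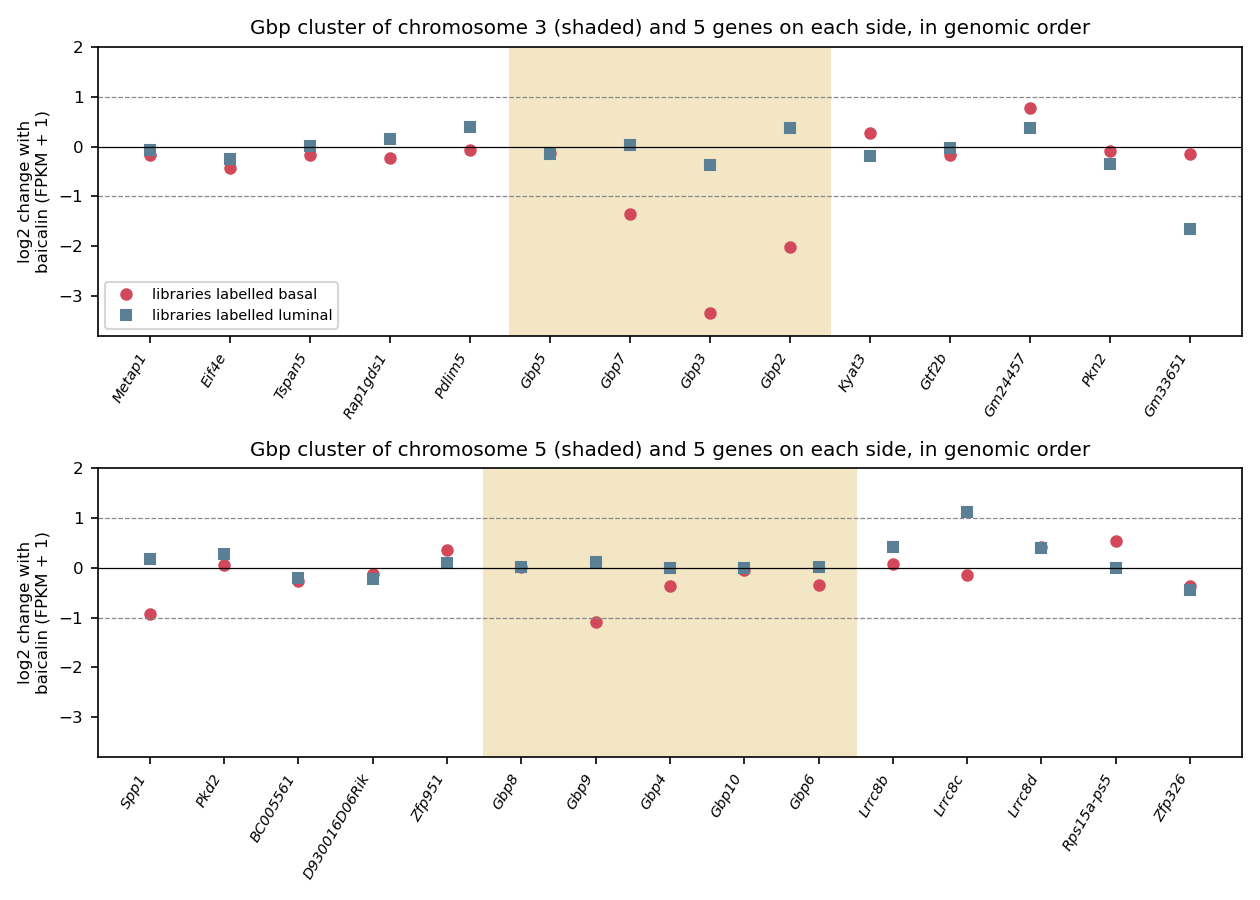
Log2 change with baicalin on FPKM + 1 for the members (shaded) and the 5 nearest genes of at least 1 FPKM on each side of each cluster, in genomic order and not to scale, in the libraries labelled basal (circles) and luminal (squares). Below a change of -1 in the libraries labelled basal lie Gbp7, Gbp3 and Gbp2 on chromosome 3 and Gbp9 on chromosome 5.

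Among 13793 other genes with at least 1 FPKM in a library, the 10 with the pattern most like the members' median over the 4 libraries were Limd2, Opn3, Apol7a, Pamr1, Gm48427, Nfatc1, Adarb1, Ppa1, Ifi35 and Bpgm. Likeness was the Euclidean distance between centred log2(FPKM + 1) profiles, and it ran from 0.0428 for Limd2 to 0.146 for Bpgm. Ifi35, an interferon-induced gene, stood at 25.1, 12.4, 10.8 and 11.4 FPKM, and Limd2 at 10.5, 5.73, 4.70 and 4.57 FPKM. Like the members, these genes were highest in the library labelled basal with DMSO, which follows from how they were selected.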

How the data were processed

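RNA-seq libraries of 3D-cultured cells were made by the authors with oligo (dT) enrichment and a stranded kit, aligned with HISAT2 and counted per gene with featureCounts 1.5.0 on the GRCm38 annotation of Ensembl release 94. The authors deposited FPKM with 4 decimals. The strand setting is not given in the sources used here, and the submitters' processing notes also name Bowtie 0.12.2 and the build mm8, with no role.

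Exon lengths and positions came from GENCODE mouse release 21, on GRCm38, and were missing for 37 genes. FPKM times length fell on steps of 1 fragment. Within 0.05 of a fragment, 98.7% to 98.8% of low values were whole, from which library depths were taken, with counting intervals of 95% (Poisson for levels, Clopper-Pearson for ratios, and a normal approximation on the log2 scale for differences of ratios). No count test was run, because each condition has 1 library. Genes above 0 FPKM in all libraries were kept, with a pseudocount of 1 FPKM and a log2 threshold of 1. Named genes were all members, up to 4 of each list with the largest change in the libraries labelled basal, and pathway receptors, factors and brakes of at least 5 FPKM, and a few more were named after their values were seen (markers, Ifnb1, Ifne, Casp4, neighbours). The members and lists were chosen with earlier results of these data known. Alternatives were other pseudocounts, filters, thresholds and TPM. The depth recovery, the changes and the Clopper-Pearson intervals of ratios were tested on simulated data, and the other intervals were not. Scripts ran under Python 3.11.15 with scipy 1.17.1, and figures were drawn with matplotlib 3.10.9.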

Additional observations from a re-analysis of the deposited data

Results flagged for a closer look

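Gbp2 had opposite directions with baicalin under the 2 labels. Its FPKM with baicalin divided by that with DMSO was 0.234 for the pair labelled basal and 1.33 for the pair labelled luminal. Each rests on 1 library per condition, and the difference between the labels was not tested. The pair labelled basal led to the choice of the family, so the contrast is a description only.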

How the results depend on the processing

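With 1 library per condition, no library could be left out, and no paired analysis was possible because no condition has a second replicate. The count of members lower by more than 1 in the libraries labelled basal went from 4 to 7 with no pseudocount, to 6 with a pseudocount of 0.1 FPKM and to 2 with a threshold of 2. The share of all genes went from 3.33% to 11.5%, 7.32% and 0.742% in the same order. The count under DMSO between the labels went from 4 to 2 with a threshold of 2 and to 6 with a pseudocount of 0.1 FPKM, with none and with TPM. There the share of all genes that were lower went from 3.86% to 0.843%, 8.25%, 10.8% and 7.19% in the same order. The count in the libraries labelled luminal went from 0 to 1 with no pseudocount, the 1 being Gbp5, which had 1 fragment with baicalin. Among all genes the share that changed in these libraries went from 3.95% to 17.4%. The median change in the libraries labelled basal was -0.73 as reported, -1.65 with a pseudocount of 0.1 FPKM, -1.92 with none, -0.37 with no filter on low values, -1.68 for members of at least 1 FPKM, -1.08 for members of at least 10 fragments and -1.25 after scaling to TPM. The median in the libraries labelled luminal was 0.01 as reported and 0.15 with no pseudocount. For the smaller pseudocounts and for TPM, which makes the added 1 smaller beside the values, low members weigh more by construction, and the filters change which members enter. Of 150 values of single members under the alternatives, 122 moved by no more than 0.5 of the width of their counting interval on the log2 scale (0.1 for Gbp8) and 28 moved further, and 0 changes past 1 turned their direction. Members under 1 FPKM rest on few fragments, and depth limits what can be seen for Gbp8 and Gbp10.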

Other observations

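Genes with the pattern most like that of a single member were looked up after the values were seen, with the same Euclidean distance over the 4 libraries. For Gbp3 the nearest was Ifit3b, an interferon-induced gene that stood at 9.44, 0.345, 0.465 and 0.145 FPKM in the libraries labelled basal with DMSO, basal with baicalin, luminal with DMSO and luminal with baicalin. The next was Smoc1, which encodes a matrix protein, at 17.1, 0.818, 2.20 and 1.09 FPKM, followed by Cxcl10 and Oasl2. For Gbp2 the nearest were Apol9b, at 5.89, 0.758, 0.397 and 0.612 FPKM, and Parp14, an ADP-ribosyltransferase, at 24.4, 5.99, 3.33 and 3.68 FPKM. For Gbp7 it was Dtx3l, a ubiquitin ligase, at 17.9, 6.34, 5.41 and 5.10 FPKM, and for Gbp9 it was Rnf125, another ubiquitin ligase, at 12.5, 5.99, 3.29 and 3.92 FPKM. The chemokine gene Ccl5 was also among the 5 nearest to Gbp9, at 2.83, 0.976, 0.377 and 0.404 FPKM. These genes were selected for their likeness over 4 libraries, so their shared order is a description and no measure of shared control.

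Of the other Gbp rows in the table, Gbp2b and the pseudogene Gbp2-ps were at 0 in all 4 libraries. Gbp11, annotated as a polymorphic pseudogene, had 1 fragment in the library labelled basal with DMSO and 1 in that labelled luminal with baicalin. In the libraries labelled luminal, Lrrc8c, a neighbour of the chromosome 5 cluster, was higher with baicalin by 1.12, from 6.68 to 15.7 FPKM. The 5 members of that cluster lay between -0.01 and 0.11. The gene model Gm33651, 939 kb after the chromosome 3 cluster, changed by -1.66, from 3.17 to 0.319 FPKM. The members of the chromosome 3 cluster lay between -0.36 and 0.37.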
